A study of Drosophila melanogaster with 9 samples.

Results

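The genes of the JAK-STAT pathway were followed in RNA-seq of *Dl* > GFP+ cells sorted from the midgut of the fruit fly. The pathway was represented by 10 genes of the 17481 in the deposited table, chosen by name from what they do in the pathway. They were the ligand genes *upd1*, *upd2* and *upd3*, the receptor genes *dome* and *et*, the kinase gene *hop*, the transcription factor gene *Stat92E*, and the regulator genes *Socs36E*, *Socs16D* and *Ptp61F*. All 10 were found, and all 10 reached 0.1 FPKM on average over the libraries, the level needed to be tested. FPKM, the fragments of a gene scaled to its transcript length and to all mapped fragments of the library, is a level per transcript length. Levels of different genes can be set beside each other only roughly here. The RNA was amplified, and the tool behind the FPKM is not given.

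The 9 libraries fell into 3 groups of 3: control, *gro-RNAi* and *Notch-RNAi*. The labels call all 9 sorted ISCs of adults of 5 to 7 days, with the genotypes wild type, groucho RNAi and notch RNAi. In the study's methods, which describe the control and *gro-RNAi* flies, both carried *Dl-Gal4*, *UAS-GFP* and a temperature-sensitive Gal80, so that *Dl*-positive cells expressed GFP, with or without the RNAi transgene, once the flies were warmed. Crosses were kept at 18°C, and progeny aged 3 to 5 days spent 4 days at 29°C before dissection. About 200 midguts were pooled per replicate and about 30000 GFP+ cells were sorted per sample, so that each library averages many animals and every cell the driver marks. The age at dissection in the methods runs past the range in the labels, and the difference could not be settled. The driver and timing of the *Notch-RNAi* flies are not given separately in the sources used here. The RNA was amplified before sequencing. The study's strain list names a pair of *gro* RNAi lines and a single *Notch* RNAi line, without saying which were used for these libraries.

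In flies the pathway starts with the Unpaired proteins, secreted cytokines that bind the receptor Domeless. The bound receptor activates the Janus kinase Hopscotch, which phosphorylates the transcription factor Stat92E, and this enters the nucleus and switches on target genes, among them the gene of its own inhibitor Socs36E. In the midgut the pathway is known for driving the division of intestinal stem cells (ISCs) and the maturation of their daughters, and the ligands are induced when the gut is stressed or damaged.

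Low FPKM values rise in steps of 1 read, and the size of these steps gave an estimate of depth. The control libraries held about 11000000 to 12400000 reads, the *gro-RNAi* libraries about 7610000 to 13900000 and the *Notch-RNAi* libraries about 16100000 to 18700000. *gro* was at 15.3 to 27.8 FPKM in control and at 3.69 to 13.8 in *gro-RNAi*, a difference that missed the threshold of 0.05 (limma adjusted p = 0.094). *N* was at 28.5 to 40.9 FPKM in control and at 9.78 to 16.1 in *Notch-RNAi* (limma adjusted p = 0.00242). *Dl*, whose driver marked the sorted cells with GFP, was at 3.93 to 7.09 FPKM in control, 25.6 to 69.7 in *gro-RNAi* and 38.8 to 54.7 in *Notch-RNAi*. The study reports that cells presumed to be ISC daughters retain *Dl* expression when *gro* is depleted. More stem cells and more *Dl* RNA per cell cannot be told apart here. Markers of other cells that can hold pathway RNA differed in amount. The 7 matched genes of visceral muscle, a known source of Unpaired ligands, summed to 1.59 to 2.76 FPKM in control, 2.39 to 2.72 in *gro-RNAi* and 2.60 to 4.10 in *Notch-RNAi*, with *Mhc* at 0.0945 or less in every library. The 5 genes of hemocytes and fat body summed to 1.97 or less. The 8 enterocyte genes summed to 560 to 871 FPKM in control, 596 to 1571 in *gro-RNAi* and 348 to 590 in *Notch-RNAi*, and the 7 enteroendocrine genes to 277 to 676, 337 to 788 and 129 to 147. The low enteroendocrine sum in *Notch-RNAi* came from the hormone genes *Tk*, *NPF* and *Dh31*, which were called lower, while the transcription factor genes *pros* and *Poxn* were called higher (limma adjusted p = 0.00213 and 0.0133). In *gro-RNAi* *pros* was called higher too (limma adjusted p = 0.032), and the other 6 genes of this list were not called. The 3 genes of enteroblasts, the undifferentiated daughters of ISCs, summed to 409 to 657, 565 to 747 and 106 to 148. The part of these cells in the results below was not tested. Fewer cells of a type and less RNA per cell cannot be told apart in such libraries.

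The 10 genes lie on 4 chromosome arms of BDGP6, the build named in the submitters' processing notes. The ligand genes form a cluster on chromosome X, with *upd2* (FBgn0030904) from 18240654 to 18243284 on the minus strand, *upd3* (FBgn0053542) from 18277233 to 18284596 on the plus strand and *upd1* (FBgn0004956) from 18305354 to 18309291 on the minus strand. Between *upd2* and *upd3* lie 33948 bases, and between *upd3* and *upd1* 20757. The receptor genes are also neighbours on X. *dome* (FBgn0043903) runs from 19676061 to 19683518 and *et* (FBgn0031055) from 19672312 to 19675891, both on the minus strand with 169 bases between them. *hop* (FBgn0004864, X from 11360930 to 11368098), *Socs16D* (FBgn0030869, X from 17820764 to 17827564), *Stat92E* (FBgn0016917, 3R from 20535323 to 20552311), *Socs36E* (FBgn0041184, 2L from 18138675 to 18152417) and *Ptp61F* (FBgn0267487, 3L from 1342493 to 1475257) lie apart, all on the minus strand. The span of *Ptp61F* holds or overlaps 20 other annotated genes.

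In control cells the levels of these genes spread over more than 2 orders of magnitude. *Stat92E* (67.1 ± 14.3 FPKM, SD, n = 3 libraries) and *Socs36E* (65.0 ± 24.3) were the highest, at places 1349 and 1384 among the 11493 genes tested, followed by *Ptp61F* (49.1 ± 10.4) and *upd3* (45.4 ± 6.58). Each of these overlapped with its neighbour in this order, while every library of *Stat92E* was above every library of *Ptp61F*, narrowly, and of *upd3*. Every library of *upd3* was then above every library of *upd2* (23.2 ± 12.03). *upd2* and *dome* (21.1 ± 2.37) overlapped. *dome* was above *Socs16D* (14.2 ± 1.68) and *Socs16D* above *hop* (3.39 ± 0.88), in each case with no overlap. *upd1* (0.141 ± 0.090) and *et* (0.139 ± 0.064) were close to the detection limit, with about 1 to 6 and 2 to 5 reads per control library. The RNA of the whole signalling chain from ligand to feedback inhibitor was therefore listed in the control libraries. The kinase gene was lower than every other gene but *upd1* and *et*. Which of the sorted cells held each RNA cannot be read from bulk libraries.

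**Figure D1:**
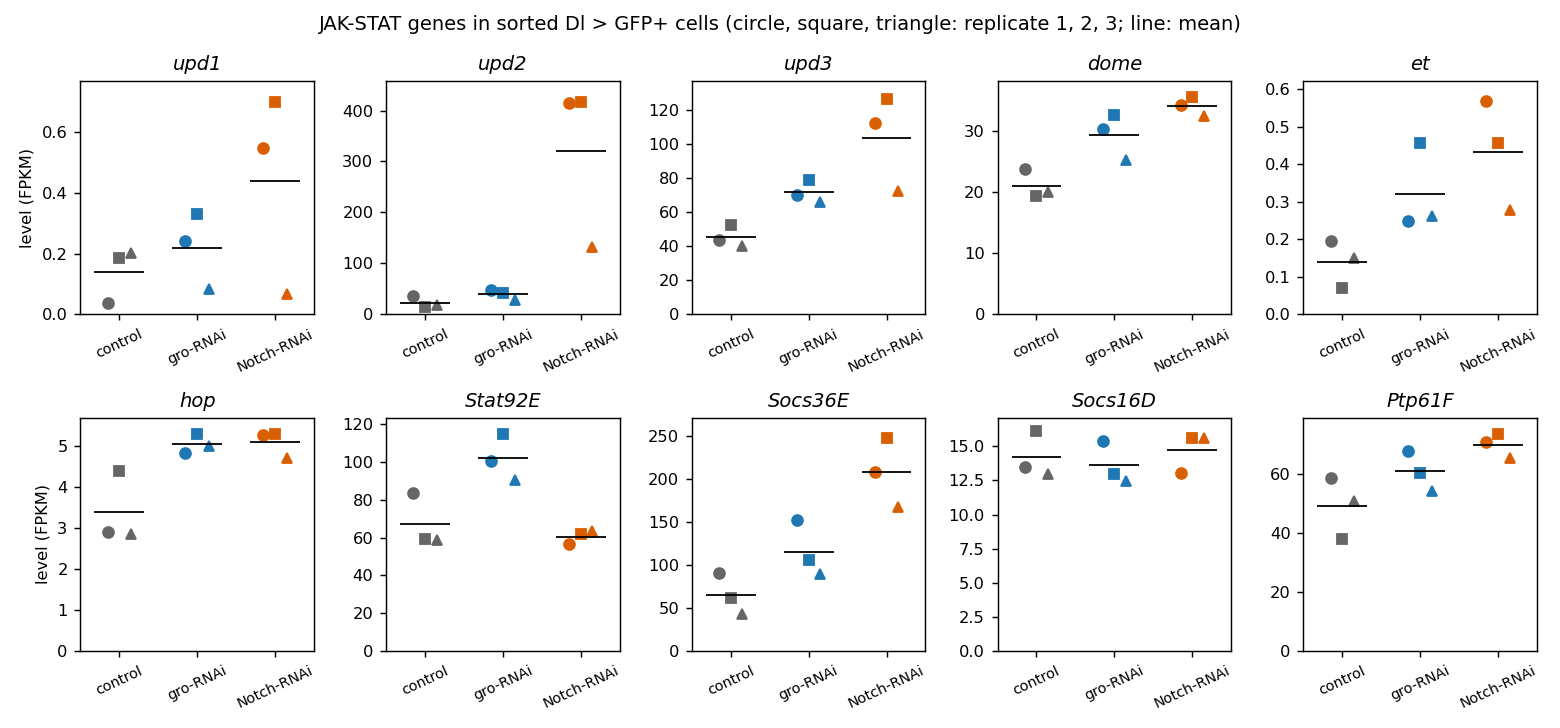
Level (FPKM, linear axes from 0) of each of the 10 genes in every library, grouped as control, *gro-RNAi* and *Notch-RNAi*; circles, squares and triangles are replicates 1, 2 and 3 and the line is the mean of 3. *upd2* stood at 132 to 416 FPKM in *Notch-RNAi* against at most 36.9 in control, and *Stat92E* was highest in the *gro-RNAi* libraries.

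Depletion of *Notch* was compared with control first. The ligand genes *upd2* and *upd3*, the receptor gene *dome* and the feedback gene *Socs36E* rose, by 13.9-fold, 2.28-fold, 1.62-fold and 3.20-fold as ratios of mean FPKM, while *Stat92E* did not pass the threshold, at 0.901 of its control level. Of the 10 genes, 4 were called higher and none lower at an adjusted p under 0.05 (limma on log2(FPKM + 0.1), Benjamini-Hochberg over all tested genes), against 24.4% of all tested genes called higher and 4.29% lower. In 7 of the 10, every *Notch-RNAi* library lay above every control library, against 39% of all tested genes, and in none did they lie below (8%). The median log2 fold change was 0.83 over the 10 genes and 0.46 over all tested genes. Since most genes were shifted upward in this comparison, changes are also given against that median, as the difference from the median gene. With every library centred on one median, 2 of the 10 were called higher (*upd2* and *Socs36E*, background 8.34%) and 1 lower (*Stat92E*, background 11.3%).

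*upd2*, which encodes a ligand also known as a leptin-like signal of the fat body, held 36.9, 14.8 and 17.7 FPKM in control libraries 1, 2 and 3 and 415, 416 and 132 in *Notch-RNAi* libraries 1, 2 and 3. The groups did not overlap, and *Notch-RNAi* library 3 was well below the others of its group yet above every control library. Its log2 fold change was 3.73 with a standard error of 0.48 (limma adjusted p = 0.00123), or 3.27 against the median gene, which put it at place 127 from the top among the 11493 genes. From place 2816 by mean level in control it moved to place 411 in *Notch-RNAi*. The call was kept in all 9 other settings (adjusted p = 9.54e-04 to 0.00828) and with any of the 6 libraries left out, where the log2 fold change was between 3.45 and 4.28. An exact permutation test gave p = 0.1 (two-sided), the smallest that 3 libraries against 3 can give.

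Within *Notch-RNAi*, library 3 was also the lowest for 3 digestive protease genes of the enterocyte list, named after their values were seen. *Jon65Aiii* was at 201, 137 and 17.8 FPKM in libraries 1, 2 and 3, *alphaTry* at 86.5, 75.0 and 19.1, and *betaTry* at 59.4, 137 and 20.2. The remaining 5 genes of the list were mixed. *mex1*, a brush border gene, was at 149, 146 and 217 FPKM and *nub* at 0.976, 0.972 and 1.79, both highest in library 3. *lambdaTry* was at 12.7, 4.20 and 4.16, *Myo31DF* at 75.6, 63.9 and 65.9, with library 3 close to library 2, and *Amy-p* at 4.62, 3.05 and 1.81, lowest in library 3. The 8 enterocyte genes together summed to 590, 567 and 348 FPKM in these libraries and to 871, 587 and 560 in control, so that every *Notch-RNAi* library was below control library 1. The 7 muscle genes summed to 3.91, 4.10 and 2.60 FPKM in *Notch-RNAi* libraries 1, 2 and 3 and to 2.76, 2.08 and 1.59 in control, so that library 3 was the lowest of its group here too. Of these, *Tm2* was called higher, at 0.515, 0.532 and 0.275 FPKM against at most 0.103 in control (limma adjusted p = 0.0256, after centring 0.109), while *Mhc* was at 0.0849 or less in *Notch-RNAi*. The part of either kind of cell in the level of *upd2* was not tested. In *Notch-RNAi* libraries 1, 2 and 3 *N* was at 13.9, 16.1 and 9.78 FPKM and *Dl* at 38.8, 46.7 and 54.7. *E(spl)mbeta-HLH* was at 139, 139 and 99.3. Library 3 was thus lowest for *N* and *E(spl)mbeta-HLH* and highest for *Dl*. These genes were likewise named after their values were seen, and their relation to *upd2* was not tested.

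*upd3*, the ligand gene known to respond to gut damage, held 43.8, 52.6 and 39.8 FPKM in control and 112, 126 and 72.1 in *Notch-RNAi*. The groups did not overlap, and library 3 was again the lowest of the depleted group. The log2 fold change was 1.16 with a standard error of 0.22 (limma adjusted p = 0.00596), or 0.70 against the median gene. Centring the libraries on the same median ended the call (adjusted p = 0.072, range over 9 settings 0.00522 to 0.072), and it was kept with any 1 library left out.

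*upd1*, the ligand gene first known from embryonic patterning, was at 0.0377, 0.184 and 0.201 FPKM in control and at 0.548, 0.699 and 0.0669 in *Notch-RNAi*. This corresponds to about 1, 6 and 6 reads against 25, 29 and 3. *Notch-RNAi* libraries 1 and 2 were above all control libraries and library 3 was within their range, as for the other ligand genes the lowest of its group. The change did not pass (log2 fold change 0.96, 95% interval -0.56 to 2.48, limma adjusted p = 0.312).

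The composition of the ligand RNA shifted with the level. The 3 ligand genes summed to 80.8, 67.7 and 57.7 FPKM in control and to 528, 543 and 204.7 in *Notch-RNAi*. *upd2* made up 21.9% to 45.7% of this sum in control and 64.7% to 78.6% in *Notch-RNAi*, with no overlap, and *upd3* the rest but for at most 0.349% from *upd1*. Such shares are formed within a library and do not depend on the scaling between libraries. In *gro-RNAi* the share of *upd2*, 30.6% to 40.0%, lay inside the control range.

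**Figure D2:**
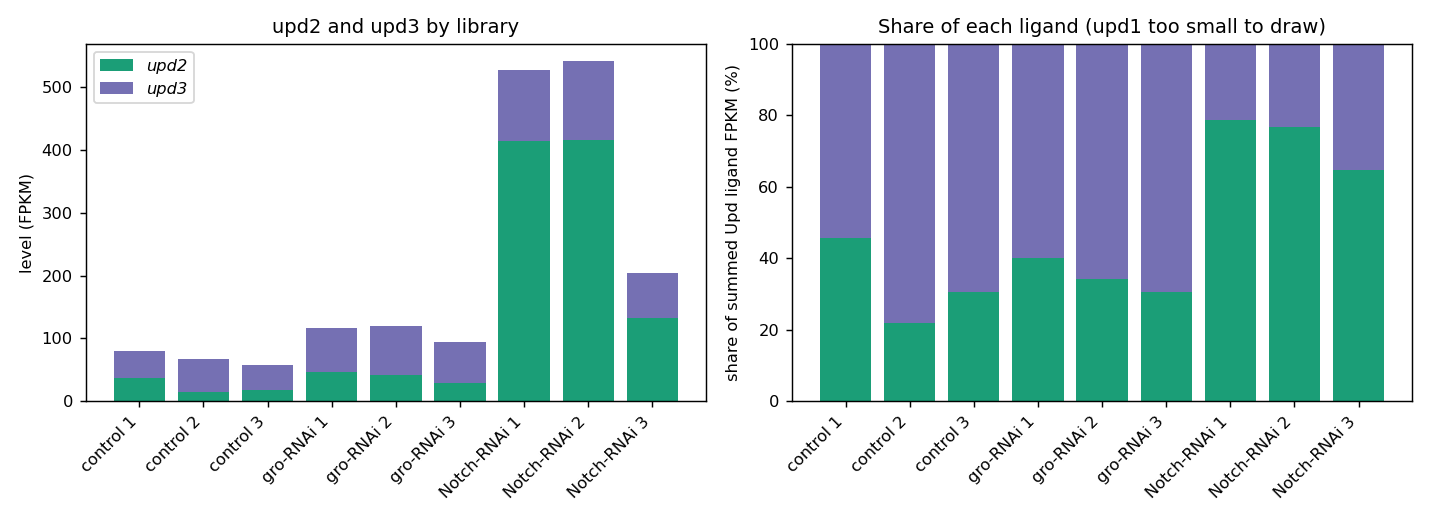
Left, stacked FPKM of *upd2* and *upd3* in each of the 9 libraries; right, their shares in percent of the summed FPKM of *upd1*, *upd2* and *upd3*. *upd2* held the larger share in the *Notch-RNAi* libraries (64.7% to 78.6%) and the smaller one in the other 6, with a sum that was lowest in *Notch-RNAi* library 3 of that group.

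*dome*, the signalling receptor, held 23.8, 19.4 and 20.01 FPKM in control and 34.4, 35.6 and 32.5 in *Notch-RNAi*. The groups did not overlap and the depleted libraries lay close together. Its log2 fold change was 0.70 with a standard error of 0.16 (limma adjusted p = 0.0123), or 0.24 against the median gene. The call ended with centring (adjusted p = 0.372, the highest over 9 settings, the lowest being 0.0107) and with quantile normalization (adjusted p = 0.23), and without *Notch-RNAi* replicate 1 (adjusted p = 0.0543) or 2 (adjusted p = 0.0531).

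*et* (eye transformer) encodes a receptor of the same family that is known to dampen the pathway. It was at 0.195, 0.0693 and 0.151 FPKM in control and at 0.567, 0.456 and 0.277 in *Notch-RNAi*, or about 5, 2 and 4 reads against 24, 18 and 12. The groups did not overlap, and the change did not pass (log2 fold change 1.16, 95% interval 0.20 to 2.12, limma adjusted p = 0.0694). It passed with a single prior variance for every gene (adjusted p = 0.0317, range over 8 settings 0.0317 to 0.426). Within a library *dome* was 60.6 to 280 times as high as *et*. Despite the 169 bases between the genes, their RNA levels thus differed widely in every library. *et* overlaps *Zw* on the other strand by 42 bases, and the strand of the reads is not given in the sources used here.

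*hop*, the Janus kinase gene, held 2.91, 4.40 and 2.85 FPKM in control and 5.27, 5.29 and 4.72 in *Notch-RNAi*. Every depleted library was higher, by a narrow margin over control library 2. The log2 fold change of 0.60 (95% interval 0.093 to 1.11) did not pass (limma adjusted p = 0.0744), except without control replicate 2 (adjusted p = 0.0312).

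*Stat92E* held 83.6, 59.1 and 58.7 FPKM in control and 56.5, 61.7 and 63.3 in *Notch-RNAi*. The groups overlapped, and the *Notch-RNAi* libraries sat beside control libraries 2 and 3. The log2 fold change was -0.13 (95% interval -0.53 to 0.26, limma adjusted p = 0.606), or -0.59 against the median gene. After centring it was -0.63 and passed the threshold (adjusted p = 0.031, range over 9 settings 0.031 to 0.661). Its direction turned to 0.037 without control replicate 1, so no direction can be given on the deposited scale. The sum of the 3 enteroblast genes was lower in every *Notch-RNAi* library than in control, at most 148 FPKM against at least 409. Most of it was *E(spl)mbeta-HLH*, whose reporter also depends on *Notch* in ISCs, and *Su(H)* was level. *klu*, the remaining gene, was called lower in *Notch-RNAi* than in control (log2 fold change -2.39, limma adjusted p = 0.00233). Its mean was 22.7 FPKM in control and 3.90 in *Notch-RNAi*. The part of enteroblasts in the level of *Stat92E* was not tested.

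*Socs36E*, the inhibitor that the pathway switches on as feedback, held 90.9, 61.4 and 42.7 FPKM in control and 208, 248 and 168 in *Notch-RNAi*. The groups did not overlap, and the lowest depleted library was well above the highest control. Its log2 fold change was 1.73 with a standard error of 0.30 (limma adjusted p = 0.00413), or 1.27 against the median gene, and was called in all 9 other settings (adjusted p = 0.00284 to 0.0118) and with any 1 library left out. lncRNA:CR44478 overlaps *Socs36E* by 402 bases on the other strand and was named after its values were seen. It was at 5.21 to 10.01 FPKM in control and 19.8 to 31.0 in *Notch-RNAi* (log2 fold change 1.84, limma adjusted p = 0.00206). Without strand information, reads in the shared bases cannot be assigned to either gene.

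*Socs16D*, another gene of the SOCS family, held 13.5, 16.1 and 13.0 FPKM in control and 13.1, 15.6 and 15.6 in *Notch-RNAi*. The libraries of both groups covered almost the same range. The log2 fold change was 0.057 (95% interval -0.33 to 0.45, limma adjusted p = 0.833), and the direction turned with centring (-0.45) and quantile normalization (-0.38). *Ptp61F*, a phosphatase that removes phosphate from Stat92E and Hopscotch, held 58.5, 38.0 and 50.7 FPKM in control and 70.7, 73.4 and 65.4 in *Notch-RNAi*. The groups did not overlap, but the change did not pass (log2 fold change 0.53, 95% interval 0.12 to 0.94, limma adjusted p = 0.0554), except without control replicate 1 (adjusted p = 0.0292). Against the median gene it was 0.070.

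Among the regulators *Socs36E* therefore moved apart from *Socs16D* and from *Stat92E*. The ratio of *Socs36E* to *Stat92E* within a library was 1.09, 1.04 and 0.727 in control, 1.52, 0.919 and 0.981 in *gro-RNAi*, and 3.68, 4.02 and 2.65 in *Notch-RNAi*. The lowest *Notch-RNAi* ratio was above the highest of either other group. The ratio of *Stat92E* to *dome* was 2.93 to 3.52 in control, 3.31 to 3.59 in *gro-RNAi* and 1.65 to 1.95 in *Notch-RNAi*, so *Notch-RNAi* was again apart from both. The ratio of *Socs36E* to *Socs16D* was 3.29 to 6.74 in control, 7.14 to 9.91 in *gro-RNAi* and 10.8 to 15.9 in *Notch-RNAi*. Here *gro-RNAi* too lay above every control library. That of *Socs36E* to *dome* was 2.13 to 3.82, 3.22 to 5.02 and 5.16 to 6.96, with *Notch-RNAi* only narrowly above *gro-RNAi*. These ratios were chosen after earlier results of these data were known and are given without a test.

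**Figure D3:**
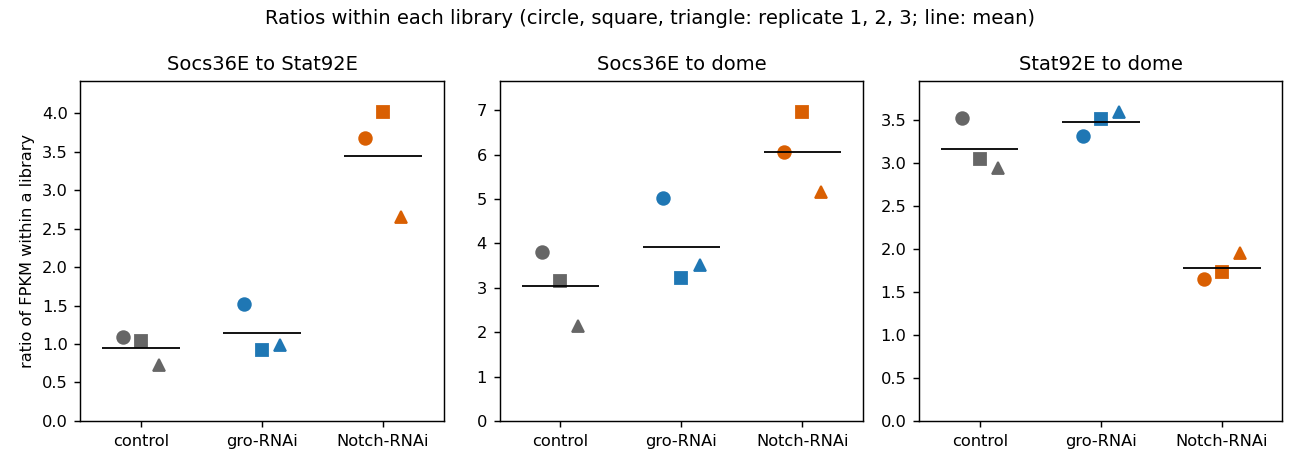
Ratios of FPKM within each library (linear axes from 0) for *Socs36E* to *Stat92E*, *Socs36E* to *dome* and *Stat92E* to *dome*; circles, squares and triangles are replicates 1, 2 and 3 and the line is the mean of 3. The *Notch-RNAi* libraries lay above the other 6 in the ratio of *Socs36E* to *Stat92E* (2.65 to 4.02) and below them in that of *Stat92E* to *dome* (1.65 to 1.95).

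Depletion of *gro* was compared with the same 3 control libraries, which both comparisons share. Most of the genes were at somewhat higher levels, with *Socs36E* at 1.78-fold, *upd2* at 1.69-fold, *upd3* at 1.58-fold, *Stat92E* at 1.52-fold, *hop* at 1.49-fold and *dome* at 1.40-fold of control by mean FPKM. None of the 10 passed the threshold (limma, 0 higher and 0 lower, against 6.26% and 1.23% of all tested genes, or 7.49% in either direction), nor after centring (1.84% and 2.69%). At an unadjusted p under 0.05 there were 5, against 24.9% of all tested genes. In 5 of the 10 every *gro-RNAi* library lay above every control library, against 21.5% of all tested genes, and in none below (4.9%). The median log2 fold change was 0.60 over the 10 genes and 0.27 over all tested genes.

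*Stat92E* was closest to the threshold, with 101 FPKM in *gro-RNAi* library 1, 114.6 in library 2 and 90.7 in library 3. All were above the highest control library. Its log2 fold change was 0.62 (95% interval 0.22 to 1.01, limma adjusted p = 0.0669), or 0.35 against the median gene. Without control replicate 1, the highest control library for *Stat92E* and *Socs36E*, both genes were called (adjusted p = 0.0235 and 0.0477), and neither was called in the other 5 fits that left out 1 library.

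*Socs36E* held 153, 105 and 89.0 FPKM in *gro-RNAi*. Library 3 fell just under control library 1, so the groups overlapped (log2 fold change 0.86, 95% interval 0.18 to 1.54, limma adjusted p = 0.117). *upd3* held 70.2, 78.9 and 65.6 FPKM in *gro-RNAi*, above every control library (log2 fold change 0.66, 95% interval 0.17 to 1.16, limma adjusted p = 0.103). *upd2* held 46.9, 41.4 and 28.98 FPKM, with library 3 inside the control range (log2 fold change 0.84, 95% interval -0.25 to 1.93, limma adjusted p = 0.319). *upd2* in *gro-RNAi* thus stayed below the lowest *Notch-RNAi* library.

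*dome* held 30.4, 32.7 and 25.3 FPKM in *gro-RNAi*, above control in every library (log2 fold change 0.48, 95% interval 0.12 to 0.84, limma adjusted p = 0.104). *hop* held 4.84, 5.30 and 5.01 FPKM, also above control in every library (log2 fold change 0.59, 95% interval 0.080 to 1.101, limma adjusted p = 0.145). *et* was at 0.249 to 0.455 FPKM, or about 6 to 8 reads, above control in every library (limma adjusted p = 0.267), and *upd1* at 0.0842 to 0.330 FPKM, or about 2 to 9 reads, within reach of the control libraries (limma adjusted p = 0.758). Both genes thus rested on few reads.

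*Ptp61F* held 67.9, 60.2 and 54.3 FPKM in *gro-RNAi*, overlapping control (log2 fold change 0.33, 95% interval -0.084 to 0.73, limma adjusted p = 0.303), with the direction turned to -0.040 by centring. *Socs16D* held 15.4, 13.0 and 12.5 FPKM, the one gene below 0 (log2 fold change -0.059, 95% interval -0.45 to 0.33, limma adjusted p = 0.875). Its libraries overlapped with control, with library 1 above 2 of the 3 control libraries and library 3 below them all.

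**Figure D4:**
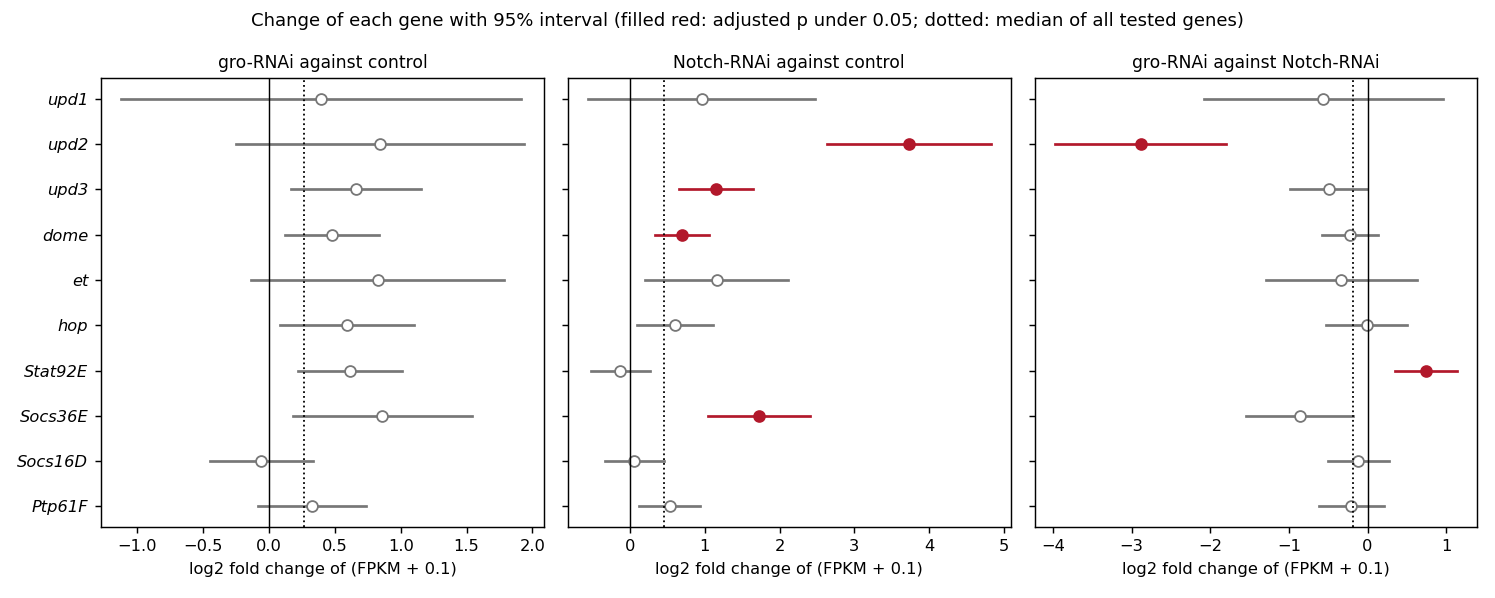
Log2 fold change of (FPKM + 0.1) with its 95% interval for each of the 10 genes in the 3 comparisons (limma, 9 libraries); filled red points have an adjusted p under 0.05, the solid line is 0 and the dotted line the median of all tested genes (0.27, 0.46 and -0.18). *upd2*, *upd3*, *dome* and *Socs36E* passed in *Notch-RNAi* against control, none passed in *gro-RNAi* against control, and *upd2* and *Stat92E* passed in the direct comparison.

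The depleted groups were then compared directly, which tests whether the 2 depletions differ. *upd2* was lower in *gro-RNAi* than in *Notch-RNAi* (39.1 ± 9.17 against 321 ± 164 FPKM, SD, n = 3 libraries each), and *Stat92E* was higher (102 ± 12.04 against 60.5 ± 3.56). These were the 2 genes called, 1 higher and 1 lower, against 2.6% and 4.86% of all tested genes, or 7.46% in either direction, and they were also the 2 called after centring (3.79% higher and 3.67% lower). In 1 of the 10 every *gro-RNAi* library lay above every *Notch-RNAi* library (10.9% of all tested genes) and in 2 below (22.3%). For *upd2* the log2 fold change was -2.89 with a standard error of 0.48 (limma adjusted p = 0.0127), and all 9 other settings called it (adjusted p = 0.0081 to 0.0337). The call ended without *Notch-RNAi* replicate 1 (adjusted p = 0.0656) or 2 (adjusted p = 0.0635), with log2 fold changes of -2.61 in both.

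For *Stat92E* the log2 fold change was 0.75 with a standard error of 0.18 (limma adjusted p = 0.0362), or 0.93 against the median gene, with every *gro-RNAi* library (90.7 FPKM or more) above every *Notch-RNAi* library (63.3 FPKM or less). The size was much the same with any of the 6 libraries left out (0.66 to 0.83), but none of these fits called it (adjusted p = 0.0514 to 0.154). With a single prior variance for every gene it was not called either (adjusted p = 0.0683, range over 9 settings 0.0175 to 0.0696).

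*Socs36E* was lower in *gro-RNAi* than in *Notch-RNAi* in every library, 153 FPKM or less against 168 or more, and did not pass (log2 fold change -0.87, 95% interval -1.54 to -0.19, limma adjusted p = 0.11). The remaining 7 genes had log2 fold changes between -0.56 and -0.012 and did not pass. For *dome* the 95% interval of the difference was -0.58 to 0.14, for *hop* -0.52 to 0.50 and for *upd3* -0.99 to -0.0016, which leaves room for differences in level that these libraries cannot resolve.

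Further lists of the pathway were read beside the 10 genes. Of 13 other parts and modulators, all tested, 5 rose in *Notch-RNAi* against control (24.4% of all tested genes did), none fell, and none was called in *gro-RNAi* against control or between the depleted groups, where 7.49% and 7.46% of all tested genes were called. At an unadjusted p under 0.05 there were 7 and 2 of the 13, against 24.9% and 26.2% of all tested genes. *Su(var)2-10*, which encodes the fly PIAS protein, a brake on STAT proteins, rose from 22.7 ± 4.33 to 40.3 ± 3.99 FPKM (SD, n = 3 libraries each, limma adjusted p = 0.00909). *Hrs*, of the endosomal sorting machinery through which receptors are degraded, rose from 34.4 ± 2.55 to 60.3 ± 7.69 FPKM (limma adjusted p = 0.0097). *TSG101*, of the same machinery, rose from 81.3 ± 13.6 to 116 ± 14.7 FPKM (limma adjusted p = 0.0373). The other genes called were the gene of heterochromatin protein HP1a (FBgn0003607, limma adjusted p = 0.0169), and *BRWD3*, a bromodomain and WD repeat gene needed for full signalling (limma adjusted p = 0.0298).

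In *gro-RNAi* against control the median log2 fold change of the list was 0.48, against 0.27 over all tested genes. In *Notch-RNAi* against control the list moved by about as much as all tested genes, with a median of 0.44 against 0.46. After centring none of the 13 was called in *Notch-RNAi* against control (0 against 8.34% higher and 11.3% lower). The calls of *Su(var)2-10* and *Hrs* were kept with any 1 library left out. That of the HP1a gene was kept in 4 of these 6 fits, ending without control replicate 3 (adjusted p = 0.0538) or *Notch-RNAi* replicate 1 (adjusted p = 0.0728). That of *TSG101* was kept in 2, without control replicate 2 or *Notch-RNAi* replicate 3, and that of *BRWD3* only without control replicate 2.

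Of 16 genes known as STAT targets in fly tissues, 12 were tested and 4 were below the filter. In *Notch-RNAi* against control 4 rose (*wdp*, *apt*, *slbo* and *TotA*) and none fell, and in *gro-RNAi* against control 2 rose (*wdp* and *TotA*) and none fell. Of all tested genes 24.4% and 4.29% were called higher and lower in the former comparison, and 6.26% and 1.23% in the latter. After centring 1 of the 12 was called higher in *Notch-RNAi* (*TotA*) and 0 in *gro-RNAi*, against 8.34% and 1.84% of all tested genes. None was called lower, against 11.3% and 2.69%. *wdp* (windpipe), a membrane protein known to restrain the pathway in the fly midgut by removing Domeless from the surface, held 54.8, 51.0 and 46.9 FPKM in control, 103, 74.2 and 74.1 in *gro-RNAi* and 92.6, 78.3 and 96.4 in *Notch-RNAi*. Both depleted groups were above control in every library. The log2 fold change was 0.80 in *Notch-RNAi* (standard error 0.17, limma adjusted p = 0.00957), kept with any 1 library left out. It was 0.70 in *gro-RNAi* (standard error 0.17, limma adjusted p = 0.0409), where no fit that left out 1 library called it (adjusted p = 0.0503 to 0.119). Against the median gene these were 0.34 and 0.43, and centring ended both calls (adjusted p = 0.218 and 0.279).

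*TotA*, a Turandot stress peptide gene, was listed at 0, 0 and 0.44 FPKM in control, 1.09, 2.32 and 1.27 in *gro-RNAi* and 1.00, 2.18 and 0.806 in *Notch-RNAi*. These values stand for about 3 reads over the control libraries, 26 over *gro-RNAi* and 39 over *Notch-RNAi*, and both depleted groups lay above control. By reads the ratio to control was 9.59 in *gro-RNAi* (95% exact interval 2.94 to 49.5) and 8.65 in *Notch-RNAi* (2.75 to 43.8), intervals that cover counting error only, since amplified reads are not independent molecules. The calls (limma adjusted p = 0.0292 and 0.015) were kept in 2 and 5 of the 6 fits that left out 1 library. The call in *gro-RNAi* also ended in 5 of 9 other settings, the replicate block among them (adjusted p = 0.0519), and reads of this gene may be shared with its close relatives in the family.

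*slbo*, a C/EBP gene switched on by the pathway in ovarian border cells, was at 0.640, 0.599 and 0.792 FPKM in control, 1.048, 0.259 and 0.277 in *gro-RNAi* and 1.97, 2.90 and 1.68 in *Notch-RNAi*. *Notch-RNAi* was above both other groups in every library. It was called in *Notch-RNAi* against control (log2 fold change 1.53, limma adjusted p = 0.0398) and lower in *gro-RNAi* than in *Notch-RNAi* (-2.05, limma adjusted p = 0.0349), the former in none of the 6 fits that left out 1 library and the latter in only 1, without *gro-RNAi* replicate 1. *apt*, which limits the pathway in the same border cells, rose from 51.2 ± 28.1 to 97.3 ± 8.16 FPKM in *Notch-RNAi* (SD, n = 3 libraries each, limma adjusted p = 0.0465), a call kept only without control replicate 1. The median of the 12 genes was 0.53 on the log2 scale in *Notch-RNAi* and 0.49 in *gro-RNAi*, against 0.46 and 0.27 over all tested genes.

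**Figure D5:**
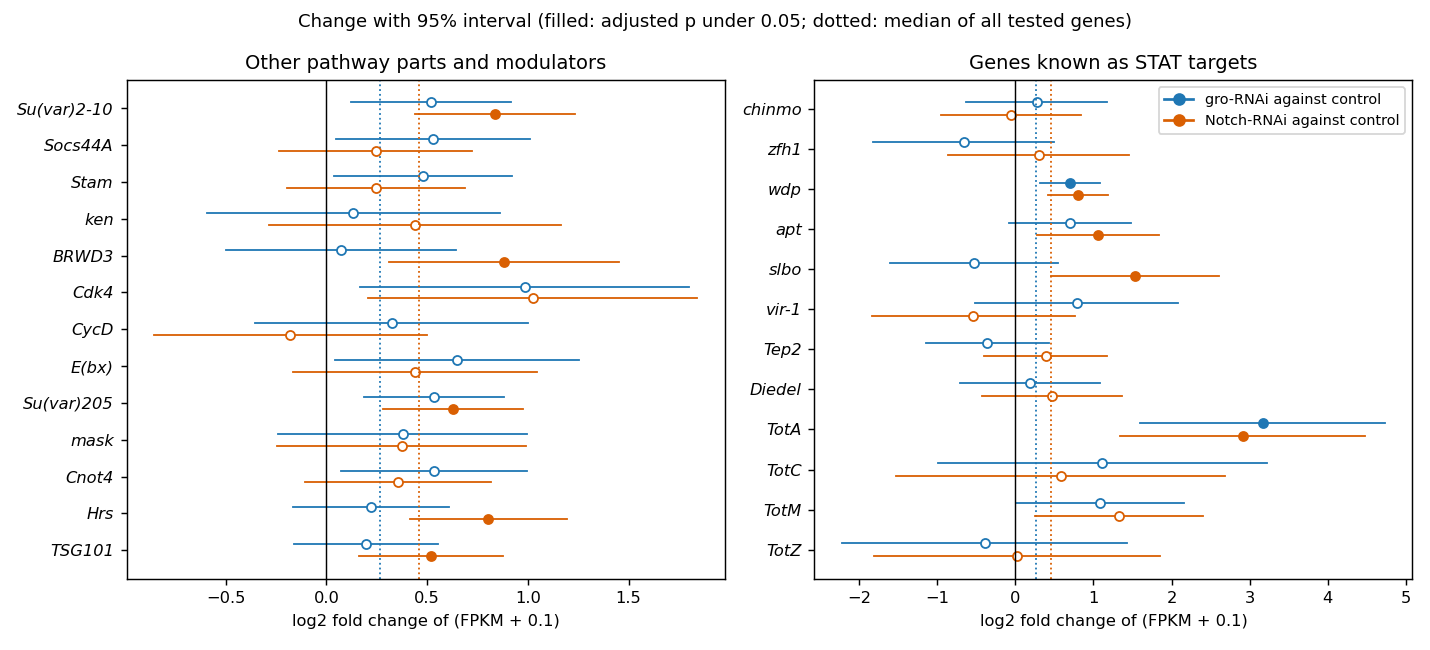
Log2 fold change of (FPKM + 0.1) with its 95% interval for 13 other pathway parts and modulators and 12 tested STAT target genes, in *gro-RNAi* (blue) and *Notch-RNAi* (orange) against the shared control; filled points have an adjusted p under 0.05 and dotted lines mark the median of all tested genes. In *Notch-RNAi* 5 modulators and 4 targets were called, in *gro-RNAi* the targets *wdp* and *TotA*.

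The genes whose levels ran most like those of 3 pathway genes were looked up by Pearson's r of log2(FPKM + 0.1) over the 9 libraries, which follow the group differences above and are given as a description. For *Stat92E* they were *fra* (r = 0.979) and *pain* (r = 0.976). *fra*, the Netrin receptor frazzled, was at 20.8 ± 8.93 FPKM in control, 58.0 ± 13.7 in *gro-RNAi* and 18.8 ± 3.43 in *Notch-RNAi* (SD, n = 3 libraries each), so it shared the high levels of *Stat92E* in *gro-RNAi*. *pain*, an ion channel gene, was at 44.5 ± 8.08, 66.2 ± 2.87 and 43.2 ± 1.19 FPKM. For *dome* they were CG1622 (r = 0.992) and the signalosome gene *CSN4* (r = 0.99), and for *Socs36E* *fl(2)d* (r = 0.988), a gene of RNA methylation and splicing, and CG2247 (r = 0.986). *CSN4* stood at 22.1 ± 2.81 FPKM in control, 31.1 ± 3.17 in *gro-RNAi* and 36.9 ± 3.50 in *Notch-RNAi*, the same order of group means as for *dome*.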

How the data were processed

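RNA-seq of sorted *Dl* > GFP+ cells comprised 9 libraries, 3 per group, matched to groups by title. The authors deposited FPKM for 17481 genes, 1 column per library. The submitters' processing notes name STAR 2.5.2b and BDGP6, and the tool behind the FPKM is not given in the sources used here. Ensembl release 115 gave positions and symbols (17176 genes matched).

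The 11493 genes that averaged 0.1 FPKM or more were compared on log2(FPKM + 0.1) with limma 3.58.1 in R 4.3.3 (eBayes with trend, 1 fit over 9 libraries, no replicate block). P-values were adjusted by Benjamini-Hochberg over all tested genes and called under 0.05. A log2 fold change on this scale understates low genes. Reads were estimated from single-read steps of values under 0.3 FPKM in genes with 1 transcript of at least 2500 nt. Nothing in the labels says that replicates were separate cultures of flies, so p-values measure the spread between libraries. The comparison was tried on simulated counts with fold changes set in advance, the same dispersion for every gene and no shift of most genes. That trial therefore does not cover the upward shift or the amplification of these libraries. Python 3.11.15 was used with numpy 2.4.6, pandas 2.3.3, matplotlib 3.10.9 and scipy 1.17.1.

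The 10 genes, the further lists and the tests were chosen with earlier results of these data known. The text names all 10 genes, genes of the further lists that were called (at most 6 a list), and the 2 genes most like each of *dome*, *Stat92E* and *Socs36E*. Alternatives were a pseudocount of 1 or 0.01, an average of 1 FPKM or no filter, centring of the libraries on one median, a fit of only the 6 libraries compared, quantile normalization, a replicate block, a single prior variance for every gene, and each library left out.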

Additional observations from a re-analysis of the deposited data

Results flagged for a closer look

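In the direct comparison of the depleted groups 2 of the 10 genes were called, against 7.46% of all tested genes. Neither was called in every refit. The log2 difference, *gro-RNAi* minus *Notch-RNAi*, was -2.89 for *upd2* (limma adjusted p = 0.0127), with every *gro-RNAi* library below every *Notch-RNAi* library, and 0.747 for *Stat92E* (limma adjusted p = 0.0362), with every *gro-RNAi* library above. The call of *upd2* was lost without *Notch-RNAi* replicate 1 (adjusted p = 0.0656) or 2 (adjusted p = 0.0635). That of *Stat92E* was lost without any 1 of the 6 libraries, with the replicate block (adjusted p = 0.0696) and with a single prior variance (adjusted p = 0.0683). For the other 8 genes the difference did not pass the threshold.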

How the results depend on the processing

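Over 444 refits of the 10 genes, 409 kept their direction and side of the threshold, 15 lost a call, 6 gained one and 14 turned direction. All 14 that turned were uncalled in the reported fit. Among settings, *Ptp61F* in *gro-RNAi* against control turned to -0.040 with centring, *Socs16D* in *Notch-RNAi* against control to -0.45 with centring and -0.38 with quantile normalization, and between the depleted groups *hop* turned to 0.13 and 0.12 with these, *Socs16D* to 0.022 with centring and *et* to 0.081 with quantile normalization. With 1 library left out, *Socs16D* ranged from -0.15 to 0.035 in *gro-RNAi* and from -0.0034 to 0.15 in *Notch-RNAi*, *Stat92E* in *Notch-RNAi* from -0.22 to 0.037 and *hop* between the depleted groups from -0.065 to 0.017. The cause was not tested.

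Of the 10 genes, leaving out 1 library called 0 to 2 in *gro-RNAi* against control, 3 to 5 in *Notch-RNAi* against control and 0 to 1 between the depleted groups, and one prior variance for all genes left 1 call there, as did the replicate block. Over all genes, 861 were called in *gro-RNAi* against control (720 higher), 521 with centring (212 higher), 450 with quantile normalization (233 higher), 194 with only the 6 libraries compared, 539 with the replicate block, and 326 to 882 with 1 library left out. In *Notch-RNAi* against control 3299 were called (2806 higher), 2252 with centring (958 higher), 2228 with quantile normalization (1067 higher), and 1562 to 2885 with 1 library left out. Between the depleted groups 857 were called (299 higher), 858 with centring (436 higher), 922 with quantile normalization (512 higher), 536 with the replicate block, and 140 to 1206 with 1 library left out.

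Replicate numbers were not taken to pair the libraries. Deviations from group means correlated at -0.046 to 0.072 over the 9 same-numbered pairs, and 4 of 9 libraries correlated best with their own number. The block ended the call of *Stat92E* between the depleted groups (adjusted p = 0.0696) and no other call of the 10 genes. Among the further genes it ended those of *wdp* (adjusted p = 0.0586) and *TotA* (0.0519) in *gro-RNAi* against control, of *BRWD3* (0.0564), *TSG101* (0.0578), *apt* (0.0504) and *slbo* (0.0586) in *Notch-RNAi* against control, and of *slbo* between the depleted groups (0.062). *upd1* and *et* rest on 1 to 29 reads per library, which limits what can be seen for them.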
